A study of Mus musculus with 24 samples.

Results

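The genes described here encode 4 families of synaptic adhesion proteins, represented by the neurexins Nrxn2 and Nrxn3, the neuroligins Nlgn1 and Nlgn2, the teneurins Tenm2, Tenm3 and Tenm4, and the latrophilins Adgrl2 and Adgrl3. They were taken by name, and a site was assigned to a gene where it shared at least 1 bp with the gene body or with the 5 kb on either side of one of its annotated transcription starts (mm10). By this rule 459 of the 144257 MYT1L sites in 4 deposited lists fell in these 9 of 21938 protein-coding genes. MYT1L, a zinc finger transcription factor of neurons, was localised with CUT&RUN, which uses an antibody to bring a nuclease to bound chromatin and sequences the DNA set free. The mice were C57BL/6J by the labels, while the study's methods name C57BL/6N for the mutant line. The groups were wildtype (WT) cortex on embryonic (E) day E18.5, WT prefrontal cortex at birth (P0), prefrontal cortex of 3-month-old Myt1l heterozygotes (HET), which carry a germline frameshift deletion in the first coding exon, and prefrontal cortex of 3-month-old WT mice. Each had 3 MYT1L libraries, merged by the authors into 1 list of start and end positions. There was no height or score and no value per library, so no count below has a replicate error, sequencing depth was unknown, and a test compares lists rather than conditions. The labels give a seq_id, which they do not explain, of 1 for the E18.5 and P0 libraries and 2 for those of adults, so in any contrast of P0 with adult mice age and whatever the seq_id marks cannot be told apart. Cortex is a mixture of cell types, and a site bound in fewer cells cannot be told apart from one bound more weakly in each cell.

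Neurexins sit in the presynaptic membrane and neuroligins face them from the postsynaptic side. The pair bridges the synaptic cleft and organises both of its sides. Teneurins are large transmembrane proteins that bind latrophilins, adhesion G protein-coupled receptors, across the cell contact. Most of these genes are among the longest of the genome. Neurexin genes use one start for the long alpha protein and another, far inside the gene, for the short beta protein.

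The lists differed strongly in the number and size of their sites, which bears on every count. The E18.5, P0, adult HET and adult WT lists held 14477, 40698, 56937 and 32145 sites with a median width of 593, 276, 108 and 167 bp. The 9 genes held 46, 141, 175 and 97 of them. Their median widths there were 580, 273, 104 and 151 bp, near those of the whole lists. The sites covered 31040 bp of these genes at E18.5, 54465 bp at P0, 19689 bp in adult HET and 19407 bp in adult WT mice, so that the adult HET list had the most sites in these genes and the P0 list the most bound sequence. The introns held 44 of 46, 129 of 141, 171 of 175 and 92 of 97 sites by midpoint. Only 3 midpoints lay in coding exons, 1 each in the E18.5, P0 and adult HET lists.

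Overlapping sites were joined into 388 positions, of which 332 belonged to 1 list and 56 to 2 or more. The same split was not counted over the whole lists. The 8 positions with sites of 3 or more lists lay in Nrxn3 (3), Tenm4 (2), Nlgn2, Tenm2 and Tenm3. At 5 of them, those of Nrxn3 and Tenm4, single bases were held by 3 or 4 lists. At the other 3 the sites were chained and no base was in more than 2 lists. Another 48 positions had sites of 2 lists and also recurred across age or genotype, but are not printed. For the 8 positions, except that of Tenm2, the bases common to the most lists are given here. They are mm10 sequence, 5′ to 3′ along the gene's transcription, cut to the middle 200 bases where longer, with any AAAGTT (the core of the MYT1L motif) or its reverse complement AACTTT in capitals.
Nrxn3, intron 9, chr12:89377309-89377473 (+), in all 4 lists: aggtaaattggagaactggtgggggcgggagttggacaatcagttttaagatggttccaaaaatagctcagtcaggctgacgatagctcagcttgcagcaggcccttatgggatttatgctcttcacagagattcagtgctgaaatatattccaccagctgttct
Nrxn3, intron 7, chr12:89331904-89332041 (+), in E18.5, P0 and adult WT: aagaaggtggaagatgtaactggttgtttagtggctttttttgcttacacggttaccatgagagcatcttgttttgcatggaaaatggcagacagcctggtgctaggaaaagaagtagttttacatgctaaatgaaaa
Nrxn3, intron 9, chr12:89356202-89356258 (+), in E18.5, P0 and adult WT: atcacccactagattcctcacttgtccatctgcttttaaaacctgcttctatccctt
Tenm4, intron 3, chr7:96474913-96475112 (+), in E18.5, P0 and adult WT: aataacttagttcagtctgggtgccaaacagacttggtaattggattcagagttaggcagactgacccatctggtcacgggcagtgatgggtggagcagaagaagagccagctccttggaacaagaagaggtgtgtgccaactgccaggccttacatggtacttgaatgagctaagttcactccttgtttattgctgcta
Tenm4, intron 5, chr7:96575265-96575464 (+), in E18.5, P0 and adult WT: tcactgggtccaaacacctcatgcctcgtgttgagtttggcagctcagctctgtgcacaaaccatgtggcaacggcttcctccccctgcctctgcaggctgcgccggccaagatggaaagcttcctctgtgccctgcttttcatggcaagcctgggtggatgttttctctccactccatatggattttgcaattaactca
Nlgn2, upstream of the first start, chr11:69838219-69838418 (-), in E18.5 and adult WT: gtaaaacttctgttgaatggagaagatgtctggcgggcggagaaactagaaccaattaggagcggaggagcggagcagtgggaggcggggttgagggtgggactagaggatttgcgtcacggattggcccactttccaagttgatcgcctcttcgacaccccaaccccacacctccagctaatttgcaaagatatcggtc
Tenm3, intron 11, chr8:48313603-48313699 (-), in P0 and adult HET: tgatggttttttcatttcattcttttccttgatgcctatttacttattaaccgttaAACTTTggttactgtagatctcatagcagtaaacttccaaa

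As cut to at most 200 bases, the stretch of Tenm3 held the word and the other 7 (that of Tenm2 is not printed) did not. The full stretch of Nlgn2, the adult WT site of 586 bp, held 1 word outside the bases printed. Intron numbers are those of the longest protein-coding transcript.

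The neurexins differed in where their sites lay. Nrxn3 (chr12:88722876-90334935, + strand) had 10 sites at E18.5, 28 at P0, 49 in adult HET and 43 in adult WT mice, the most of the 9 genes in each list. This is 0.618, 1.73, 3.03 and 2.66 sites per 100 kb, against genome means of 0.547, 1.54, 2.15 and 1.21. The exact 95% Poisson intervals, which cover counting error only, held the genome mean at E18.5 (0.297 to 1.14) and P0 (1.15 to 2.50) and lay above it in adult HET (2.24 to 4.01) and adult WT mice (1.92 to 3.58). Only 3 of its 130 sites were within 5 kb of a start, 1 each in the P0 list (117 bp wide, 637 bp from a start), the adult WT list (159 bp wide, 4498 bp away) and the adult HET list. No site of any list lay within 5 kb of the start of its longest protein (alpha, 1571 amino acids, chr12 position 88794504). The beta start (567 amino acids, position 89812483) had 1 site, in adult HET mice, 1466 bp away (chr12:89813949-89814159).

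The position of Nrxn3 held by all 4 lists (chr12:89376516-89377817) lay in intron 9, with its sites 183410 to 184203 bp from the nearest start. It consisted of an E18.5 site of 784 bp, P0 sites of 745 and 516 bp, an adult HET site of 165 bp and an adult WT site of 284 bp. The adult sites lay inside the stretch bound in the younger lists. At the other 2 positions the E18.5 and P0 sites were also several times wider than that of adult WT, with 1075, 1061 and 138 bp in intron 7 and 580, 438 and 127 bp in intron 9. Nrxn3 was the only one of the 9 genes with a position in 4 lists.

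Nrxn2 (chr19:6418731-6544169, + strand) had 1, 5, 1 and 4 sites in the E18.5, P0, adult HET and adult WT lists. At P0 a site of 273 bp (chr19:6418569-6418841) covered the first start group, with proteins of up to 1703 amino acids. A P0 site of 220 bp lay 318 bp from its nearest start. The other lists had none there. Neither the start group of the longest protein (1710 amino acids, positions 6427923 to 6428646) nor the beta start had a site within 5 kb in any list. The single E18.5 site, 255 bp in intron 4, lay inside a P0 site of 507 bp (chr19:6452035-6452541), 2030 bp from the start of a noncoding transcript. The remaining near-start sites were a P0 site of 126 bp and an adult WT site of 134 bp, 1552 and 3885 bp from starts of noncoding transcripts. None of the sites of Nrxn2 in the 2 adult lists overlapped a site of another list. Such overlaps were few in the whole lists too. Of all adult HET sites 2.74%, 3.42% and 4.90% overlapped a site of the E18.5, P0 and adult WT lists. Of all adult WT sites 8.86%, 10.4% and 8.38% overlapped a site of the E18.5, P0 and adult HET lists.

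The neuroligins were set apart by gene length. Nlgn1 (chr3:25426215-26332460, - strand) had 5 sites at E18.5, 13 at P0, 35 in adult HET and 17 in adult WT mice. Its density in adult HET mice was 3.84 sites per 100 kb (2.68 to 5.34), the highest of the 9 genes in that list, against 1.87 (1.09 to 2.99) in adult WT mice. At P0 a site of 197 bp (chr3:26331800-26331996) covered the first start and another of 389 bp lay 292 bp from it. A further P0 site lay 271 bp from a second coding start at position 26153307. The only adult sites near the first start lay 2204 bp away in HET and 2194 bp away in WT mice, on opposite sides. Of its 35 adult HET sites 3 overlapped sites of adult WT mice, all in introns, and none a site at E18.5 or P0. Over all adult HET sites the shares were 4.90% for adult WT, 2.74% for E18.5 and 3.42% for P0.

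Nlgn2 (chr11:69823122-69837784, - strand), the neuroligin known from inhibitory synapses, is 15 kb long and had sites only at its promoter. An E18.5 site of 1067 bp (chr11:69837587-69838653) spanned the first start. At P0 there were sites of 155 bp (chr11:69837531-69837685) and 203 bp (chr11:69836452-69836654), 99 and 1130 bp from the nearest start. In adult WT mice a site of 586 bp (chr11:69838026-69838611) lay 242 bp away. The E18.5 site covered all of the adult WT site and part of a P0 site, but the P0 and adult WT sites did not touch each other. Adult HET mice had none, which at this gene length allows a density of up to 18.8 per 100 kb and so is not told apart from the 1 to 2 sites of the other lists. All 4 sites were also within 5 kb of a start of the neighbouring gene Tmem256, and cannot be assigned to either.

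**Figure D1:**
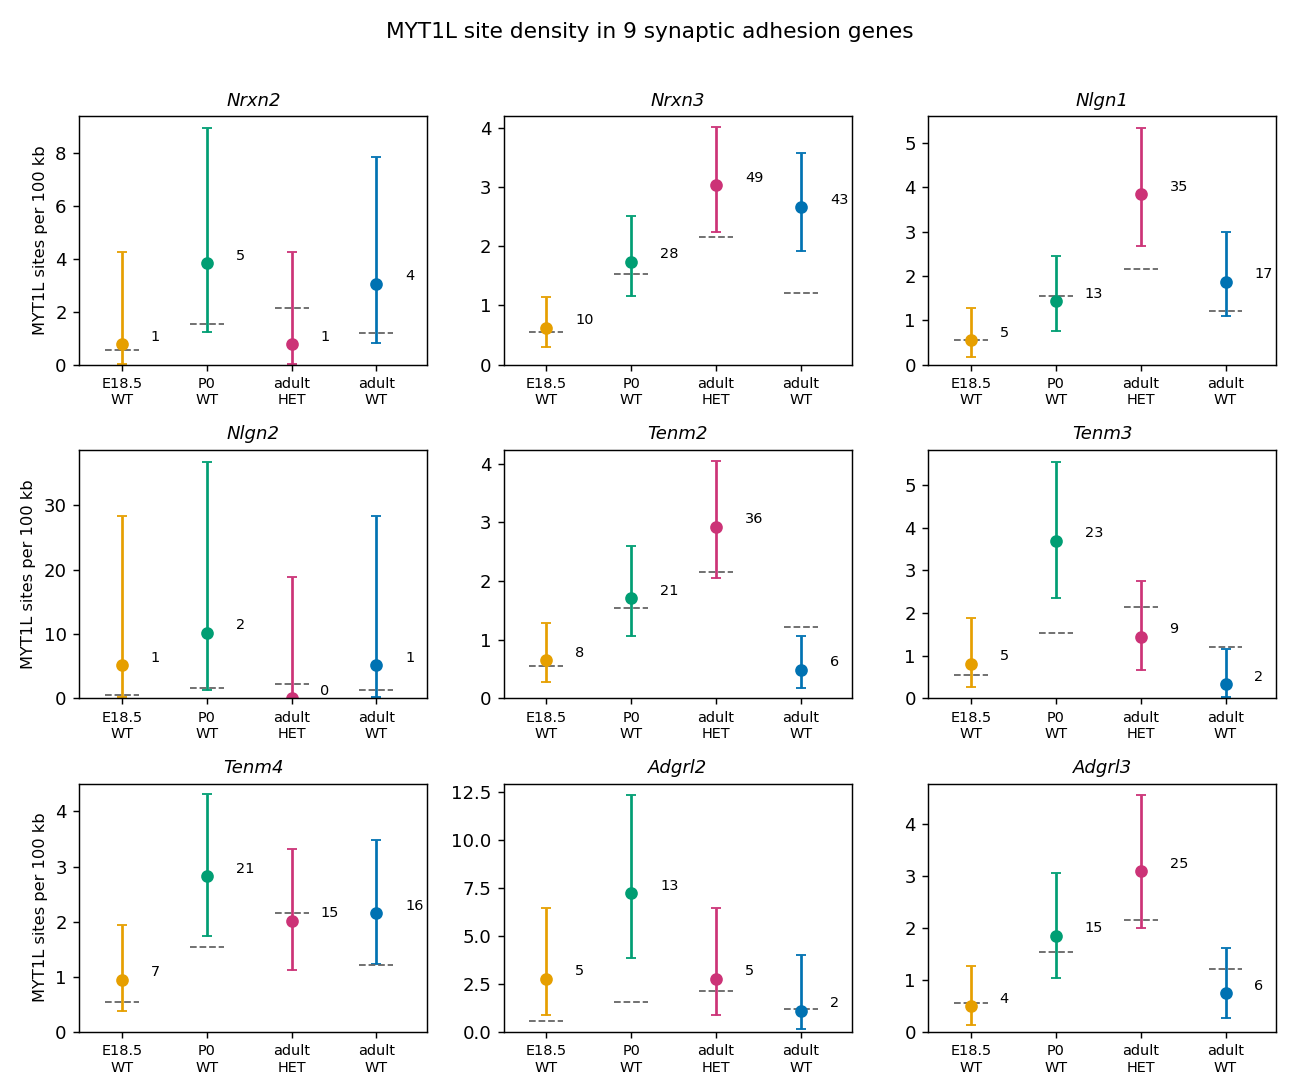
MYT1L sites per 100 kb (vertical axis, a scale per gene) in each of the 9 genes for the E18.5 WT, P0 WT, adult HET and adult WT lists. Points are densities with the number of sites beside them, bars are exact 95% Poisson intervals for counting error, and dashes are the genome mean of the list. Tenm2 and Tenm3 fall below the dash in adult WT, where Nrxn3 lies above it.

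The teneurins were alike at P0 in number of sites but not in the adult lists. Tenm2 (chr11:36006656-37235964, - strand) had 8 sites at E18.5, 21 at P0, 36 in adult HET and 6 in adult WT mice. Tenm3 (chr8:48227682-48843951, - strand) had 5, 23, 9 and 2. Tenm4 (chr7:96171246-96911093, + strand) had 7, 21, 15 and 16. P0 densities were 1.70 for Tenm2, 3.70 for Tenm3 and 2.82 for Tenm4 per 100 kb. In adult WT mice they were 0.486 (0.178 to 1.06), 0.322 (0.0390 to 1.16) and 2.15 (1.23 to 3.49), so that Tenm2 and Tenm3 lay below the genome mean of 1.21 and Tenm4 above it.

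All 3 teneurins had their near-start sites in clusters at P0, each at a different kind of start. Tenm2 had 3 P0 sites at its first start, the widest of 1237 bp across it (chr11:37235611-37236847). A second cluster of 4 P0 sites lay around an internal start of a noncoding transcript at position 36677745, where a site of 1412 bp covered the start. There the E18.5 site of 299 bp (chr11:36678286-36678584) bridged 2 of the P0 sites. The remaining near-start sites of Tenm2 were a P0 site of 130 bp and an adult HET site of 68 bp, 1818 and 2633 bp from a start of a noncoding transcript at position 36495139. Adult WT mice had no Tenm2 site near a start. The start of the longest Tenm2 protein (2765 amino acids, position 36944166) had no site within 5 kb in any list. The first start gives a protein of up to 2764 amino acids.

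Tenm3 had none at its first start in any list, and none at the start of its longest protein (2715 amino acids). Its 5 P0 sites, between 185 and 460 bp wide, lay within 1596 bp of internal coding starts at positions 48555313 to 48556039, and 2 of them covered a start. A single E18.5 site of 938 bp (chr8:48554038-48554975) overlapped 2 of the 5. Neither adult list had a Tenm3 site near a start. The position shared by P0 and both adult lists (chr8:48313374-48313739) was in intron 11, and consisted of a P0 site of 191 bp, adult HET sites of 149 and 97 bp and an adult WT site of 125 bp. The adult WT site overlapped 1 of the adult HET sites but not the P0 site.

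Tenm4 had 6 P0 sites of 121 to 503 bp between chr7 positions 96210988 and 96213675, around and downstream of starts of proteins of 2796 and 2833 amino acids. A 465 bp site covered the last of these starts, and an E18.5 site of 360 bp overlapped 1 of the 6. The adult sites near a start lay elsewhere. In adult HET mice they were 830 bp from the start at 96171246 and 4013 bp from that of a noncoding transcript, and in adult WT mice 1290 bp from a start at 96522398. Tenm4 was the only one of the 9 genes with a near-start site in all 4 lists, though not at the same start. Its 2 positions of E18.5, P0 and adult WT mice measured 1868, 899 and 240 bp in intron 3 and 610, 823 and 562 bp in intron 5.

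The latrophilin genes differed in length and in which lists held their near-start sites. Adgrl2 (chr3:148815583-148990555, - strand) is 175 kb long and had 5 sites at E18.5, 13 at P0, 5 in adult HET and 2 in adult WT mice. Its density of 2.78 (0.902 to 6.48) at E18.5 and 7.22 (3.85 to 12.4) at P0 placed it at percentile 97.6 among 2492 genes of at least 100 kb in both lists. In adult HET mice, with 2.78 sites per 100 kb, it was at percentile 69.7, and in adult WT mice, with 1.11, at percentile 48.3. At its first start, E18.5 and P0 sites of 1679 bp (chr3:148989284-148990962) and 1683 bp (chr3:148989302-148990984) coincided almost base for base. A second E18.5 site of 803 bp lay further downstream and overlapped P0 sites of 276 and 668 bp. A further P0 site of 552 bp lay 2454 bp from a start. The start group of the longest Adgrl2 protein (1487 amino acids, positions 148954635 to 148954787) had no site within 5 kb in any list. None of the 5 adult HET and 2 adult WT sites of Adgrl2 was near a start or overlapped a site of another list. In the whole lists at most 4.90% of adult HET and 10.4% of adult WT sites overlapped any given other list.

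Adgrl3 (chr5:81020138-81825133, + strand) had 4 sites at E18.5, 15 at P0, 25 in adult HET and 6 in adult WT mice. At its first start group it had 3 P0 sites of 399, 115 and 247 bp and an adult HET site of 89 bp. None of these overlapped. The start group of the longest Adgrl3 protein (1580 amino acids, positions 81309873 to 81310025) had no site within 5 kb in any list. Another adult HET site (chr5:81647422-81647561) and all 3 near-start sites of adult WT mice lay at internal starts of noncoding transcripts, 1433 bp away in HET and 3351 to 3955 bp away in WT mice. The 4 E18.5 sites of Adgrl3 all lay far inside the gene and all overlapped P0 sites, the widest of 1309 bp in intron 4 (chr5:81475020-81476328) with a P0 site of 1429 bp. None of its 25 adult HET and 6 adult WT sites overlapped a site of another list, where the whole lists gave at most 4.90% and 10.4% for any given other list.

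**Figure D2:**
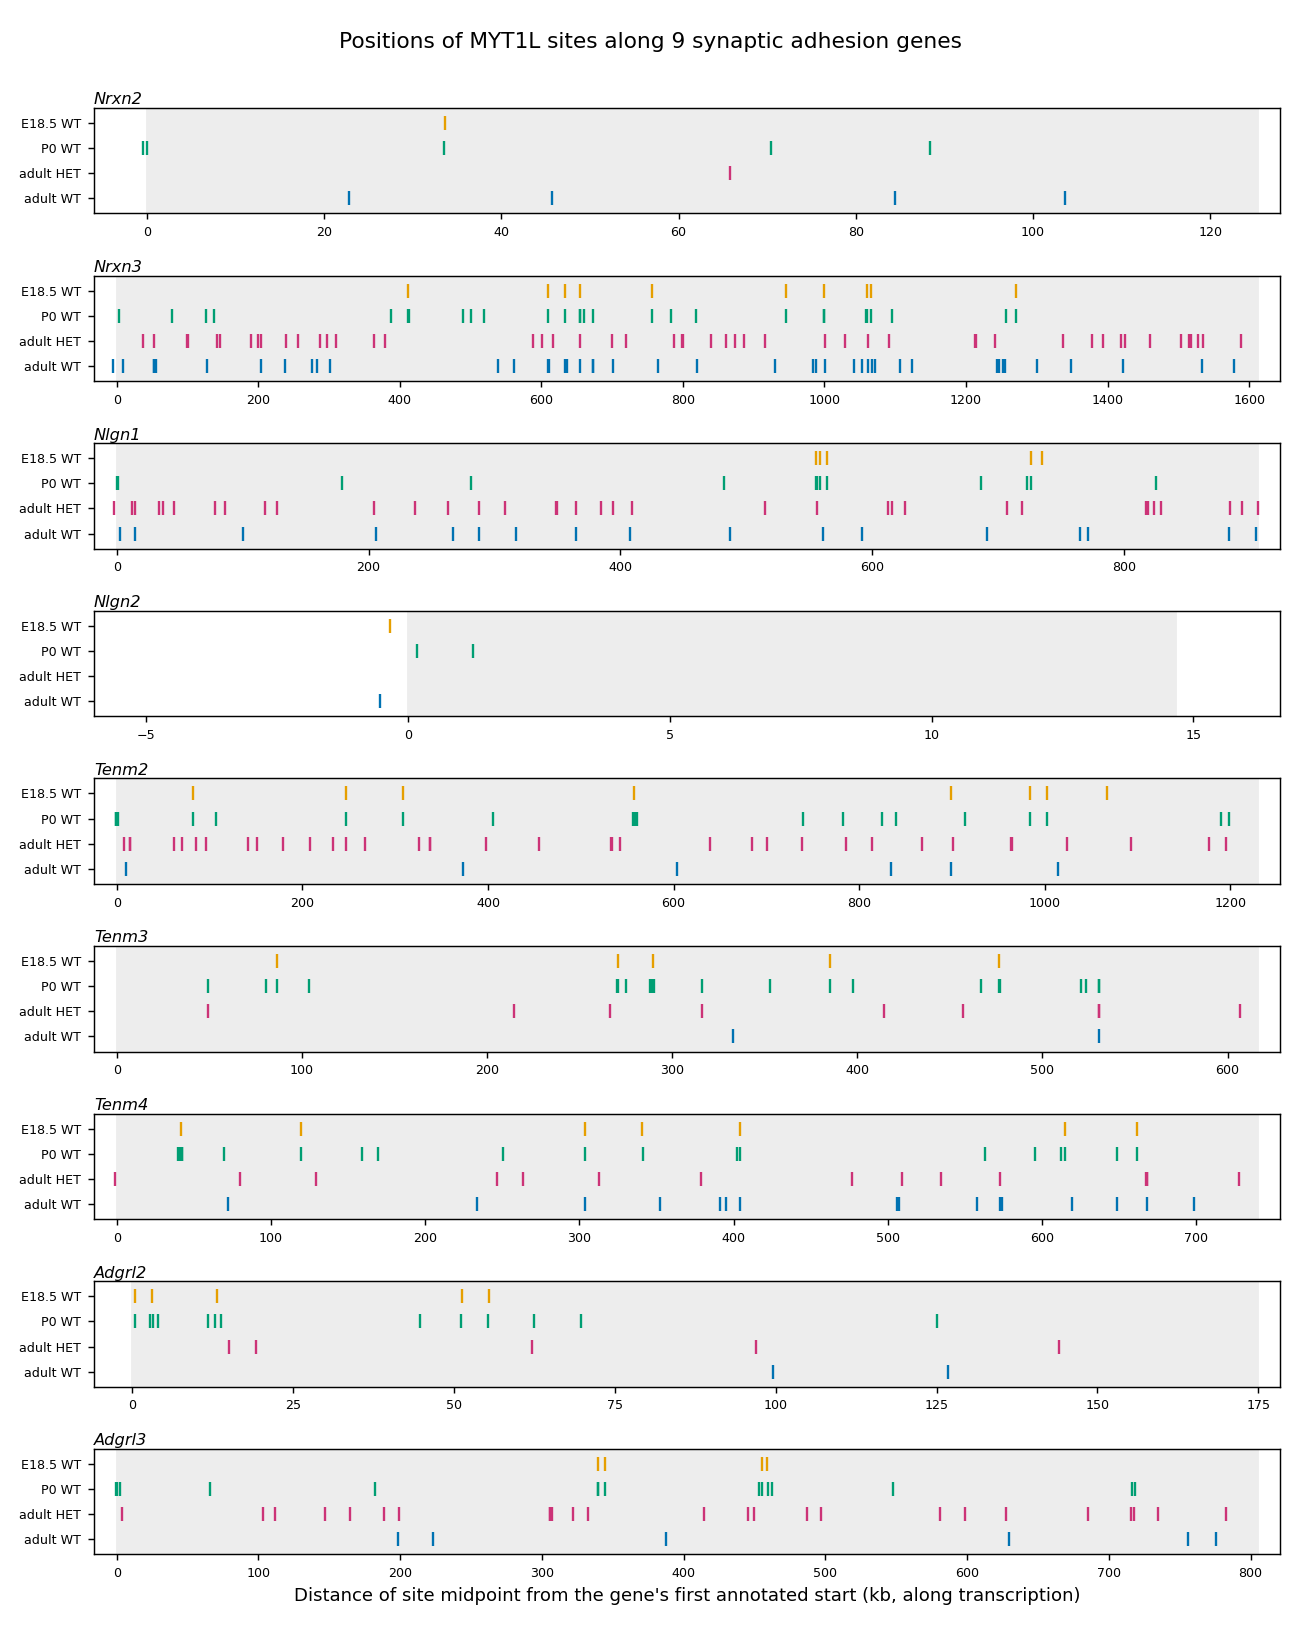
Midpoints of all 459 sites, as distance in kb from the first annotated start along transcription, with 1 row each for the E18.5 WT, P0 WT, adult HET and adult WT lists and the gene body in grey. Of the 46 orange E18.5 marks 43 overlap green P0 sites, while adult HET and adult WT marks are spread along the genes at largely different places.

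The study defined MYT1L target genes by a bound site at most 5 kb from a start. This held for 6 of the 9 genes at E18.5 (all but Nrxn3, Nlgn1 and Adgrl3), all 9 at P0, 5 in adult HET mice (Nrxn3, Nlgn1, Tenm2, Tenm4 and Adgrl3) and 6 in adult WT mice (all but Tenm2, Tenm3 and Adgrl2). Of all protein-coding genes 31.7%, 48.7%, 30.4% and 24.6% were targets in these lists, and of the genes of at least 100 kb 39.2%, 68.4%, 48.2% and 40.7%. Starts of noncoding transcripts of a gene count here. With coding starts only, 3 of 9 were targets in adult WT mice. Within 1 kb of any start it was 1 of 9 in adult HET mice (Tenm4) and 1 of 9 in adult WT mice (Nlgn2). The shares of all genes under these settings were not counted, so the lower counts cannot be read as particular to these genes. The number of near-start sites was 7, 36, 7 and 8, that is 15.2%, 25.5%, 4.0% and 8.25% of the sites of the 9 genes. These shares were below the 36.3%, 35.9%, 13.6% and 17.8% over all genes of at least 100 kb. The comparison was not matched for gene length, and most of the 9 genes are far longer than 100 kb. The part of gene length in this gap was not tested.

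**Figure D3:**
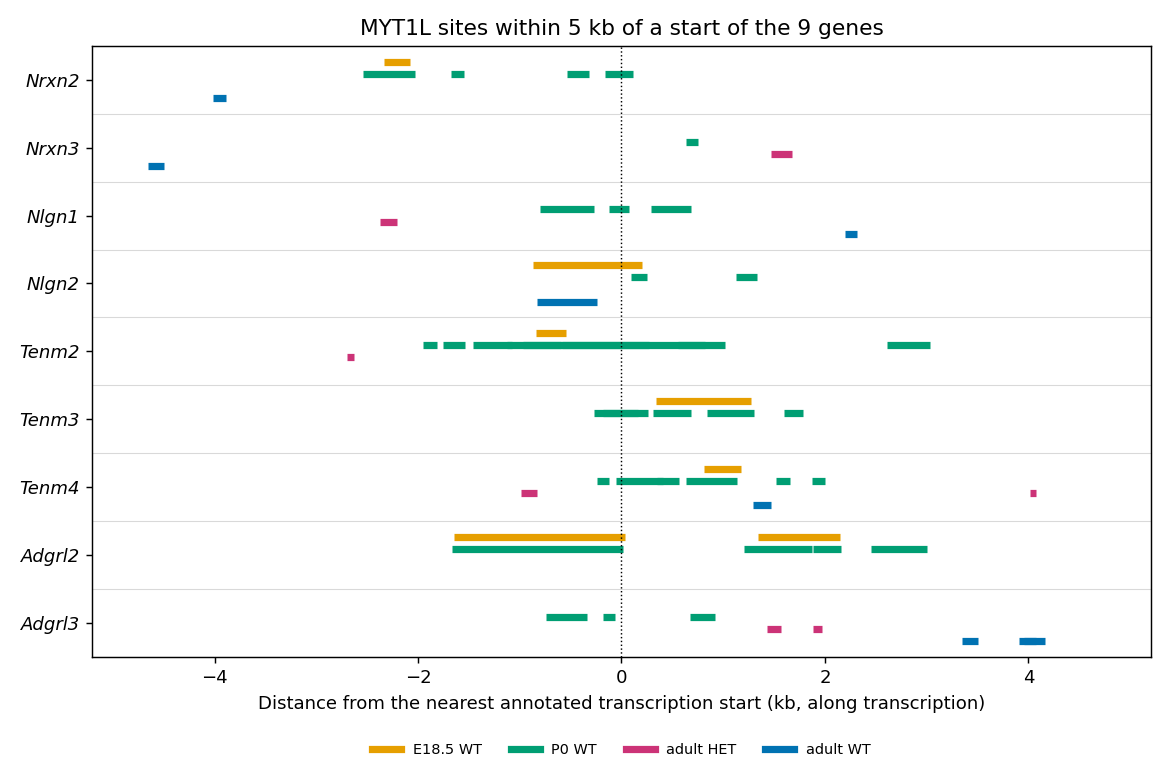
Sites within 5 kb of a transcription start, drawn to their width at their distance in kb from the nearest annotated start (sites at different starts of 1 gene share a line), with rows within each gene in the order E18.5 WT, P0 WT, adult HET, adult WT. The P0 list gives 36 of them against 7, 7 and 8 in the E18.5, adult HET and adult WT lists, and at Adgrl2 and Nlgn2 an E18.5 site reaches across the start.

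Most E18.5 sites of the 9 genes were also sites at P0, whereas sites at P0 and in adult WT mice were largely at different places. Of the P0 sites 47 of 141 (33.3%, exact Clopper-Pearson 95% interval 25.6 to 41.8) overlapped an E18.5 site and of the E18.5 sites 43 of 46 (93.5%, 82.1 to 98.6) a P0 site. Over the whole lists these shares were 34.8% and 88.3%. The 3 E18.5 sites without a P0 partner were 2 in Tenm2 (chr11:36169124-36169608 and chr11:36337054-36337443) and 1 in Nlgn1 (chr3:25597508-25597899). Between stages, 7 of 97 adult WT sites (7.22%, 2.95 to 14.3) overlapped a P0 site and 8 of 141 P0 sites (5.67%, 2.48 to 10.9) an adult WT site. All sites gave 10.4% and 7.99%. These overlaps lay in Nrxn3 and Tenm4 only. Between genotypes, 10 of 175 adult HET sites (5.71%, 2.77 to 10.3) overlapped one of adult WT mice and 9 of 97 adult WT sites (9.28%, 4.33 to 16.9) one of adult HET mice, in Nrxn3, Nlgn1, Tenm3 and Tenm4. All sites gave 4.90% and 8.38%. Each of these 6 intervals held the share of all sites. Of the 388 positions 127 were in the younger lists only, 248 in the adult lists only and 13 in both. Positions of the whole lists were not counted in this way, so the split cannot be read as particular to these genes.

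**Figure D4:**
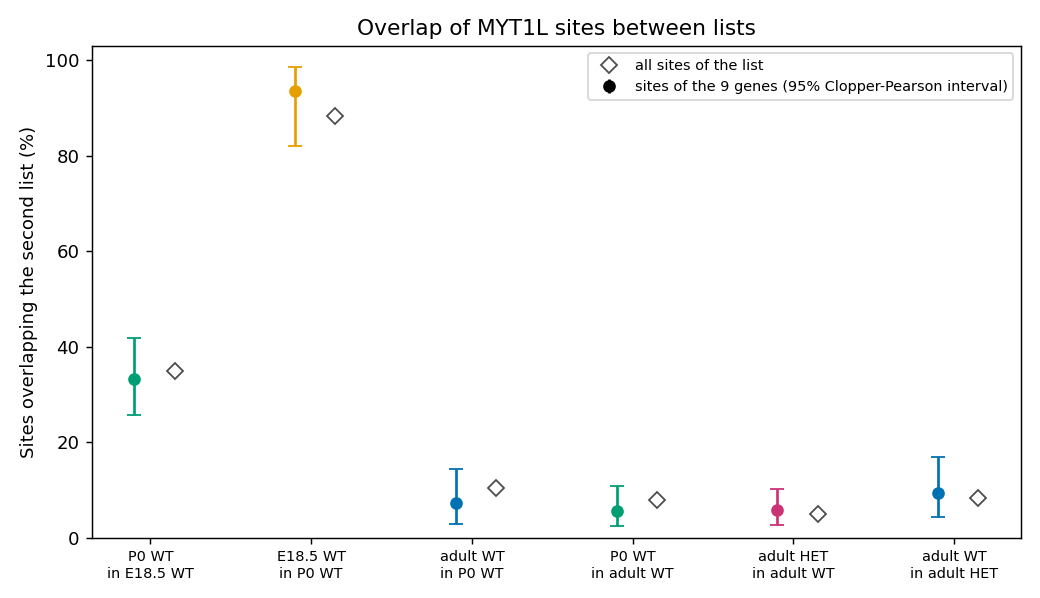
Share in percent of sites of the first list that overlap a site of the second by at least 1 bp. Circles are sites of the 9 genes with exact 95% Clopper-Pearson intervals, and open diamonds are all sites of the same list. The share of E18.5 sites found at P0 was 93.5%, and the shares between P0 and adult WT mice and between the adult genotypes were all under 10% for the 9 genes.

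Whether a gene took a larger share of one list than of another was tested for every protein-coding gene with at least 5 sites in the 2 lists together (Fisher's exact test, two-sided, Benjamini-Hochberg adjustment over all genes tested). The test takes sites as independent and compares lists, not mice. Nlgn2 had too few sites. Between P0 and E18.5 none of 2412 genes was called (0%; 3 had an unadjusted p below 0.05), nor any of the 8 genes tested here. Their odds ratios of P0 over E18.5 lay between 0.925 for Nlgn1 and Adgrl2 (interval 0.309 to 3.31) and 1.78 for Nrxn2 (0.199 to 84.1). For Nrxn3 and Tenm2, with more sites, they were 0.996 (0.469 to 2.30) and 0.934 (0.397 to 2.44).

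Between adult WT mice and P0, 39 of 2693 genes were called (1.45%), 13 of them lower in adult WT mice (0.483%). Of the 8 genes 1 was called. Tenm3 had 2 of the 32145 sites in adult WT mice and 23 of the 40698 at P0, an odds ratio of 0.110 (0.0126 to 0.445, adjusted p = 0.0174 by Fisher's exact test). This call was lost under each of the 4 other settings, with an adjusted p of 0.142 when sites within 500 bp were joined, 0.0521 when the share was taken of sites in protein-coding genes, 0.0882 when genes with at least 1 site were tested and 0.0521 with the wider sites of each list. The odds ratio stayed below 1 in all 4. With a small constant added to each count, its log2 was -2.54, -2.54, -2.89 and -4.41, against -2.89 in the main setting. The 0.110 above is another estimate, computed without this constant. The odds ratio was 0.362 (0.119 to 0.926) for Tenm2, 0.195 (0.0213 to 0.860) for Adgrl2 and 1.95 (1.18 to 3.25) for Nrxn3, none of which passed after adjustment (adjusted p = 0.329, 0.262 and 0.149, Fisher's exact test). Nrxn3 passed when shares were taken of sites in protein-coding genes (adjusted p = 0.0132, Fisher's exact test). Tenm4 had almost the same share in both lists, with 16 sites in adult WT mice and 21 at P0 and an odds ratio of 0.965 (0.471 to 1.94).

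Between adult HET and adult WT mice, 8 of 2324 genes were called (0.344%), all lower in adult HET mice, and none of the 8 tested here. Tenm2 had 36 sites in adult HET and 6 in adult WT mice, an odds ratio of 3.39 (1.41 to 9.84, adjusted p = 0.205, Fisher's exact test). None of the 36 overlapped any of the 6, while 4.90% of all adult HET sites overlapped an adult WT site. For Nrxn3, with 49 sites in adult HET and 43 in adult WT mice, it was 0.643 (0.418 to 0.992, adjusted p = 0.529, Fisher's exact test). Adgrl3 had 25 and 6 sites in adult HET and adult WT mice and an odds ratio of 2.35 (0.942 to 7.01), and Nlgn1 35 and 17 sites and 1.16 (0.634 to 2.21). Repeat sequence made up 25.0% of a site of the 9 genes on average in adult HET mice and 16.4% in adult WT mice, below the 33.4% and 23.5% over all sites of these lists, and its part in the site counts was not tested.

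AAAGTT was found within 75 bp of the midpoint, on either strand, in 7 of 46 sites at E18.5 (15.2%, 6.34 to 28.9), 21 of 141 at P0 (14.9%, 9.46 to 21.9), 34 of 175 in adult HET (19.4%, 13.8 to 26.1) and 10 of 97 in adult WT mice (10.3%, 5.06 to 18.1). All sites of the lists gave 15.2%, 14.6%, 14.5% and 13.8%, and each interval held its share. With repeat-masked bases left out, 28 of 175 adult HET sites held the word (16%, 10.9 to 22.3), and this interval lay above the 9.68% over all sites of that list. Masking kept every site in the denominator, and these sites held less repeat than all sites of the list (25.0% against 33.4% on average). The part of repeat content in this gap was not tested. In the E18.5, P0 and adult WT lists the masked shares were 10.9%, 13.5% and 8.25% against 12.6%, 11.96% and 10.4% over all sites, each within its interval. Counted over the full width of the sites, the word occurred 0.999, 1.05, 1.42 and 0.670 times per kb of the 9 genes' sites in these lists and 0.979, 1.01, 1.06 and 1.01 times per kb of all sites.

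Among sites of at least 1000 bp the most words were in Adgrl2. An E18.5 site of 1781 bp in intron 1 (chr3:148938403-148940183) held 4. Of 638 E18.5 sites of like width (0.8 to 1.25 times) 56 held at least as many (8.78%). Of the 4 words 3 lay close together, also within the P0 site there, 2 on the strand of the gene and 1 on the other. They are shown on the strand of the gene, with the words in capitals.
Adgrl2, intron 1, chr3:148939945-148940014 (-): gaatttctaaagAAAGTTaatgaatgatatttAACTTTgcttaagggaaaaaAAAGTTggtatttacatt
The site across the first start of Adgrl2 held 3 words, shown each in its own orientation with 12 bases on either side. Of E18.5 sites of like width 22.0% held at least as many. The E18.5 site of 1309 bp in intron 4 of Adgrl3 also held 3 words, which are not printed. Of E18.5 sites of its like width 13.3% held at least as many.
Adgrl2 start, chr3:148990490-148990495 (-): ctgcggaaactaAAAGTTtcggggcctccg
Adgrl2 start, chr3:148990645-148990650 (+): cgctcgttaacgAAAGTTacattttttttt
Adgrl2 start, chr3:148990707-148990712 (-): gtcaataaagtcAAAGTTtagctagctcta

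Synaptic partners, ligands and organisers around these families were counted from a list of 44 genes, not all of which encode direct partners. It held genes of LRRTM, FLRT, SLITRK and LRRC4 proteins, cerebellins, C1q-like proteins, neurexophilins, calsyntenins, MDGA proteins and receptor tyrosine phosphatases. Genes of netrin-G and IL1RAP family proteins, GRID receptors, dystroglycan, UNC5D and synaptic scaffolds were also in it. In the E18.5, P0, adult HET and adult WT lists 18, 32, 17 and 19 of the 44 had a site near a start. Of all protein-coding genes 31.7%, 48.7%, 30.4% and 24.6% had one, and of those of at least 100 kb 39.2%, 68.4%, 48.2% and 40.7%. Such a site was present in all 4 lists for 7 of the 44, namely Lrrc4c, Ptprd, Magi2, Dlg4, Flrt2, Cask and Lrrtm2. This held for 1 of the 9 genes (Tenm4) and 7.22% of protein-coding genes. The 44 included 18 genes of at least 100 kb, and the share of 7.22% was not matched for gene length. Lrrtm2, which encodes a ligand of neurexins, had 1, 2, 1 and 1 near-start sites in the E18.5, P0, adult HET and adult WT lists. Flrt2, of a family that binds latrophilins, had 2, 6, 2 and 3. The receptor phosphatase gene Ptprd had 3, 7, 2 and 1. Like most of the 9 genes, these 3 had the most such sites at P0. The scaffold gene Magi2 had 3, 10, 5 and 4, and Dlg4, which encodes the main scaffold of the excitatory postsynapse, had 1, 2, 1 and 4. Cask, whose protein binds the tail of neurexins, had 1, 3, 1 and 1, and the netrin-G ligand gene Lrrc4c had 1, 3, 1 and 2. Of the 7, Dlg4 alone had more in the adult WT list than at P0. Median site densities of the 44 genes were 0.251, 2.31, 2.02 and 1.51 per 100 kb, and those of the 9 genes 0.767, 2.82, 2.78 and 1.87. Genes of at least 100 kb had medians of 0.521, 1.64, 2.06 and 1.17.

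For the 3 genes with the most sites, the long gene with the most similar set of 4 densities was sought among 2492 (Euclidean distance of log2 of the density plus 0.1). It was Pde1a for Nrxn3 (distance 0.208), with 2, 5, 8 and 8 sites in the E18.5, P0, adult HET and adult WT lists. For Tenm2 it was Gm42416 (0.238), with 6, 14, 24 and 5 sites, and for Nlgn1 it was Fmn1 (0.272), with 2, 5, 17 and 8. The measure rests on 4 values per gene, which share the depth of their lists, and is a description of these lists.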

How the data were processed

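MYT1L CUT&RUN libraries of mouse cortex were processed by the authors with nf-core/cutandrun (mm10). For the aligner, peak caller, cutoff and handling of the 12 IgG controls, details were not given in the sources used here. Some adult libraries carry Myt2l or Myt3l in their titles and were taken as MYT1L libraries, because the methods name no other antibody than IgG. The labels name cortex at E18.5 and the methods prefrontal cortex.

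The deposited values are positions: a start and an end in bp per site, 1 list per group, merged over its 3 libraries, with no count, score or signal, so that depth and replicate spread are unknown. IgG libraries are not analysed here. Genes and starts were those of GENCODE M21 on GRCm38, and sequence that of GRCm38.p6, both the assembly of mm10. Positions count from 1. Overlap needed 1 bp. Densities have exact Poisson and shares exact Clopper-Pearson 95% intervals, for counting error only. Site numbers per gene were tested with Fisher's exact test in Python 3.11.15 (scipy 1.17.1, pandas 2.3.3, numpy 2.4.6, matplotlib 3.10.9) after a trial on simulated data. The rule for named genes took the 9 genes, the nearest pattern of the 3 with most sites, partner genes near a start in all 4 lists, and neighbours with a start within 5 kb of a site. The genes, lists and tests were chosen with earlier results of these data known. Alternatives changed the distance, the width of sites, joining, the denominator, the overlap, the motif window and the masking of repeats.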

Additional observations from a re-analysis of the deposited data

How the results depend on the processing

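No paired analysis was possible because each list merges the libraries of its group and carries no replicate, and for the same reason no library could be left out. Of the alternative values of the main counts and shares 51 stayed near the reported value and 21 moved. Some of these outcomes were fixed by the setting. Keeping only sites wider than the median must lower their number, and a wider motif window can only raise a share. No calls under both settings counted as near. The tally is therefore not a measure of robustness. With only the sites wider than their list's median, the 9 genes held 21, 68, 75 and 40 sites in the E18.5, P0, adult HET and adult WT lists, and near-start sites were found in 3 of 9 genes at E18.5 and 3 in adult WT mice. Within 1 kb of a start it was 1 of 9 in each adult list, and with coding starts only 3 in adult WT mice. For these near-start counts the share of all genes was not counted. Genes called between adult WT mice and P0 numbered 11 with sites within 500 bp joined, 71 as shares of sites in protein-coding genes, 19 with at least 1 site and 17 with wide sites, against 39. Of the 9 genes 0 were called with joined sites, with at least 1 site and with wide sites, and 1 (Nrxn3, in place of Tenm3) as shares of sites in protein-coding genes. Between adult HET and adult WT mice joining gave 4 genes, against 8. AAAGTT within 250 bp was found in 30.4%, 32.6%, 44.0% and 35.1% of the 9 genes' sites and 36.3%, 35.1%, 38.7% and 35.6% of all sites, each within its interval. With repeats masked only the adult HET share (16%) had an interval that did not hold the share of all sites (9.68%). The adult HET sites of the 9 genes also held less repeat than all sites of that list.

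Reversed were log2 odds ratios, with a small constant added to each count, of genes that were not called in either setting. For P0 over E18.5 these were Nrxn3 (0.020 as shares of sites in protein-coding genes), Tenm2 (0.84 with wide sites), Tenm4 (-0.19 joined and -0.70 with wide sites) and Adgrl3 (-0.11 with wide sites). For adult WT over P0 it was Tenm4 (0.18 joined, 0.32 as shares of sites in protein-coding genes and 0.34 with wide sites). The cause was not tested. The overlap shares moved by less than their intervals under both alternatives, and no gene was called between P0 and E18.5 under any. The wide intervals of genes with few sites limit what these lists can show.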
